A study of Homo sapiens with 8 samples.

Results

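Trypsin-fold serine proteases cut other proteins with a catalytic serine, and most are made as inactive zymogens that another protease must cleave. On epithelial cells several are tethered to the plasma membrane, where they activate one another and process growth factors, channels and receptors. Secreted members, among them the plasminogen activators, act in the space around the cell. In pancreatic ductal adenocarcinoma the plasminogen activators and some transmembrane proteases have long been studied for their part in invasion.

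Expression of 10 genes for such proteases was examined in the human line CFPAC-1, which was established from a ductal adenocarcinoma of the pancreas. They were taken by symbol out of the 58870 genes of the count table. The 10 are ST14, PRSS8, TMPRSS2 and TMPRSS4, whose proteins are membrane-anchored, and PRSS22, PRSS23, KLK6, KLK10, PLAU and PLAT, whose proteins are secreted. PRSS23 was selected on its fall in the contrast examined here, so its values are given as a description with no test. The other 9 were listed by family, with earlier results of these data known, and were tested. Each symbol was found in 1 row, and all 10 genes passed the filter on low counts.

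The study compared 4 CFPAC-1 samples carrying an empty vector with 4 carrying an ADRA2A transgene, which encodes the alpha-2A adrenergic receptor, a Gi-coupled receptor for adrenaline and noradrenaline. All 8 were grown for 72 hours in IMDM with 10% serum and antibiotics, and none received a drug, so the receptor was not stimulated with an added agonist. The vector, its promoter, and whether the cells were a pool or a clone are not given in the labels, nor is it stated whether the replicates came from separate cultures. The p-values therefore measure the spread between these samples, which may be technical. Library totals ran from 14427040 to 17528910 estimated counts. ADRA2A had 0 counts in all 4 empty-vector libraries and between 112 and 172 in the ADRA2A libraries, which matches the labels.

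The cells carried the markers of an epithelial line. Of 8 ductal or epithelial markers 7 passed the filter, and their summed level was 11840 to 12390 CPM (counts scaled to library size) in the empty-vector libraries and 11520 to 12630 in the ADRA2A libraries. KRT8 takes the largest share of that sum, and single markers differed in both directions with no overlap. KRT7 had 758.9 to 818.3 CPM against 560.4 to 596.9 in the ADRA2A libraries, CDH1 400 to 428.6 against 311.5 to 335.4 and SOX9 128.3 to 135.7 against 110.2 to 116.4. KRT19 had 2749 to 2978 CPM against 3040 to 3378 in the ADRA2A libraries, and EPCAM 466 to 478.8 against 495.6 to 519.1. CFTR did not pass, with 4 to 20 counts per library. No acinar marker exceeded 4 counts, and AMY2A and PTF1A were at 0. Of the 4 immune markers CD68 alone was abundant, at 88.0 to 94.7 CPM against 108 to 119 in the ADRA2A libraries, while CD3E was at 0. Of 3 endothelial markers PECAM1 passed, at 0.589 to 1.22 CPM against 2.15 to 2.78. Of 5 fibroblast markers LUM passed, and their summed level was 1.52 to 2.16 CPM against 0.900 to 1.60. The part of these markers in the results was not tested.

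The stretches before the transcription start are shown for the gene with the lowest log2 fold change of the 10, PRSS23. They are also shown for KLK6 and KLK10, which lie close together on chromosome 19 and whose transcripts moved in opposite directions. RefSeq (GRCh38.p14) windows were at hand for 4 of the 10 genes, PRSS23, KLK6, KLK10 and PLAU. The windows used end at the start that is also that of the MANE Select transcript, and each sequence runs 5′ to 3′ on the gene's own strand. Annotated exons were left out, which leaves chr11:86800292-86800520 (plus strand) for PRSS23, chr19:50969674-50969841 (minus strand) for KLK6 and chr19:51019710-51019819 (minus strand) for KLK10. Capitals mark the GC box, GGGCGG or its complement CCGCCC.

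PRSS23: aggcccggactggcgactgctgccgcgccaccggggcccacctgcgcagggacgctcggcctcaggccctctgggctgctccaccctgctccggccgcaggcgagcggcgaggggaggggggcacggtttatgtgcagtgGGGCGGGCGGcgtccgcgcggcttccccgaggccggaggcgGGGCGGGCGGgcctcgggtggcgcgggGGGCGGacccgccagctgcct
KLK6: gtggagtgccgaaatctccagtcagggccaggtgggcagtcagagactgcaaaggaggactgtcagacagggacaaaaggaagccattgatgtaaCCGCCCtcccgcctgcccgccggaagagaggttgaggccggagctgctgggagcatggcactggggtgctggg
KLK10: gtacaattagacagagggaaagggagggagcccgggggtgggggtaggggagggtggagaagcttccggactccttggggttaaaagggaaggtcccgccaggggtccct

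Over the whole 250 bases before the start, PRSS23 held 5 GC boxes, 2 pairs of which overlap, KLK6 and PLAU held 3 each and KLK10 held 0. At least 1 GC box was found in 42.6% of all 35116 RefSeq windows of that length. The PRSS23 window was 79.6% G and C, against 66.8% for KLK6, 62.8% for KLK10 and a median of 58.0% over all windows. Neither strand of these 4 windows held the half-site of the cAMP response element (TGACG, in 21.2% of all windows), the AP-1 motif TGAGTCA (4.20%), the TEAD motif GGAATG (11.9%) or the TATA box TATAAA (10.7%). These are letter matches within a short window. PRSS23, KLK10 and PLAU each had another RefSeq window, at a start that is not that of the MANE Select transcript. Those windows held 0 GC boxes and were 47.6%, 59.2% and 46.8% G and C. The gene-level counts do not say which start was used.

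Among the 9 tested proteases, 3 rose in the ADRA2A cells (PLAT, TMPRSS4 and KLK10), 4 fell (TMPRSS2, KLK6, PRSS22 and ST14) and 2 were not called (PRSS8 and PLAU). A call is an adjusted p-value under 0.05 in edgeR's quasi-likelihood test over all 14785 genes tested. The largest rise was that of PLAT, which encodes tissue plasminogen activator, at 1.48-fold, and the largest fall that of TMPRSS2, a transmembrane protease, at 1.58-fold lower. PRSS23, described only, was 2.24-fold lower. In bulk RNA, fewer cells that express a gene and less RNA per cell cannot be told apart. The calls covered 42.7% of all genes tested, 21.6% higher and 21.1% lower, so a called gene was common in this contrast. Because the list was put together with these results known, nothing is read from its share. The median log2 fold change of the 9 was -0.03, beside 0.00 over all genes tested, and the median absolute value was 0.30 beside 0.18.

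**Figure D1:**
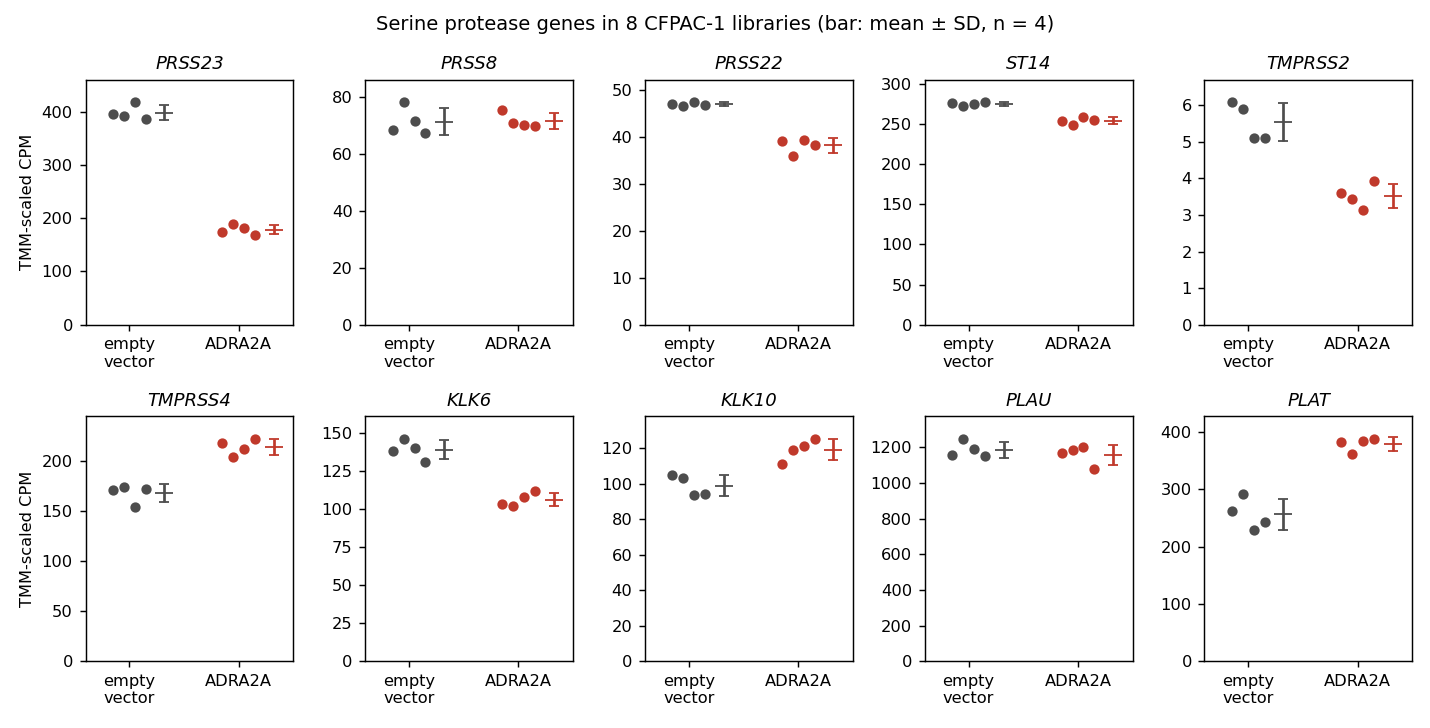
TMM-scaled CPM (vertical axis, from 0) of the 10 protease genes in each of the 8 libraries, with empty vector in grey and ADRA2A in red. Points are libraries in replicate order and the bar beside them is the mean ± SD (n = 4). The groups overlap for PRSS8 and PLAU and are apart for the other 8 genes, among them PRSS23, which was listed for its fall. Among all genes tested the groups were apart for 39.2%.

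PRSS23 (ENSG00000150687.12; chromosome 11, 86791059 to 86952910, plus strand, GRCh38) encodes a secreted serine protease whose natural substrates are poorly defined. Its level was 394.9, 391.6, 418.0 and 385.6 TMM-scaled CPM in empty-vector replicates 1 to 4 and 174, 188, 181 and 168 in ADRA2A replicates 1 to 4. Every ADRA2A library was below every empty-vector library, and the lowest empty-vector value stood far above the highest ADRA2A value. The group means were 397.5 ± 14.2 and 178 ± 8.47 CPM (SD, n = 4 each). On the log2 scale the fit gave -1.16, standard error 0.04.

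PRSS23 was heavily counted, with a mean CPM, which takes no account of length, above that of 96.1% of the genes tested. A lower log2 fold change was found for 256 genes, and for 1 of the 570 genes with at least its mean CPM. That gene, THBS1 (thrombospondin 1), was looked up after its value was seen and had -2.12. PRSS23 was the only one of the 10 proteases that differed at least 2-fold in either direction (1 on the log2 scale), a size reached by 705 genes tested. Because PRSS23 was listed for this fall, its place among the genes follows from the selection and is a description. Of 7 annotated genes that overlap its locus, FZD4 on the opposite strand was the most counted. FZD4 reached 67 counts in a library, against at least 2519 for PRSS23, and had a log2 fold change of -0.12 (edgeR adjusted p = 0.65).

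Across the 8 libraries, the genes whose log2 CPM followed that of PRSS23 most closely were LIPG (endothelial lipase), CTNNAL1 (an alpha-catenin-like protein) and SNAPC1 (a subunit of the small nuclear RNA activating complex). Pearson's r was 0.998 for each, across the 10159 genes averaging 10 CPM or more. For 223 of these genes r exceeded 0.98. The 8 points of each r are the same libraries and include both groups. LIPG went from 50.1 ± 1.00 to 23.6 ± 0.872 CPM (SD, n = 4 each). PRSS23 was listed for its fall between the groups, so a high r with it favours genes that also fell. The fall of LIPG follows from that choice and is a description.

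ST14 encodes matriptase, a transmembrane protease that activates prostasin, pro-urokinase and pro-HGF on epithelial cells. ST14 (ENSG00000149418.11; chromosome 11, 130159782 to 130210362, plus strand) had 276, 272, 275 and 277 CPM in the empty-vector libraries and 254, 249, 259 and 254 in the ADRA2A libraries. The difference was small, 7.64% lower, yet the replicates were tight and the groups did not overlap. On the log2 scale the fitted change came to -0.11, standard error 0.03 (adjusted p = 0.00612 by edgeR).

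PRSS8 encodes prostasin, a GPI-anchored protease that matriptase activates and that in turn activates the epithelial sodium channel. PRSS8 (ENSG00000052344.16; chromosome 16, 31131433 to 31135727, minus strand) had 68.6, 78.3, 71.6 and 67.4 CPM without the transgene and 75.6, 70.9, 70.2 and 69.9 with it. The ADRA2A values lay inside the empty-vector range. On the log2 scale the fitted change came to 0.00, standard error 0.05 (adjusted p = 0.963 by edgeR), with an approximate 95% interval of -0.10 to 0.10. Its sign changed under 4 alternatives, all near 0.

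TMPRSS2 and TMPRSS4 are type II transmembrane serine proteases. TMPRSS2, best known as an androgen-responsive prostate gene that primes viral spike proteins, was the least counted of the 10. TMPRSS2 (ENSG00000184012.12; chromosome 21, 41464300 to 41531116, minus strand) had 104, 87, 88 and 78 counts in the empty-vector libraries, or 6.09, 5.90, 5.11 and 5.11 CPM. In the ADRA2A libraries it had 52, 52, 55 and 62 counts, or 3.60, 3.43, 3.15 and 3.92 CPM. The groups did not overlap, and the fitted log2 change was -0.66, standard error 0.15 (adjusted p = 0.00141 by edgeR). The annotated TMPRSS2 locus overlaps that of MX1, an interferon-induced gene on the opposite strand, which rose from 192 to 388 CPM (log2 fold change 1.01; edgeR adjusted p = 8.65e-06). The use of strand in counting is not given in the sources used here, so reads of the overlapping part could have gone to either gene, and the part of MX1 in the TMPRSS2 value was not tested.

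TMPRSS4, a transmembrane protease known for its high level in pancreatic cancer, went the other way. TMPRSS4 (ENSG00000137648.17; chromosome 11, 118077012 to 118121890, plus strand) had 171, 174, 154 and 172 CPM in the empty-vector libraries and 218, 204, 212 and 222 in the ADRA2A libraries. All 4 ADRA2A libraries were higher, by 1.28-fold in the fit (log2 change 0.35 ± 0.04, SE; edgeR adjusted p = 1.19e-06). Of the 4 membrane-anchored proteases, TMPRSS4 rose, TMPRSS2 and ST14 fell, and PRSS8 was not called.

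PRSS22 encodes tryptase epsilon, a secreted epithelial protease that can activate pro-urokinase. PRSS22 (ENSG00000005001.10; chromosome 16, 2852730 to 2858170, minus strand) had 47.1, 46.6, 47.5 and 46.8 CPM in the empty-vector libraries, a coefficient of variation of 0.845%. In the ADRA2A libraries it had 39.1, 36.0, 39.5 and 38.3 CPM. It was 18.6% lower with no overlap (log2 change -0.30 ± 0.05, SE; edgeR adjusted p = 7.1e-05).

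**Figure D2:**
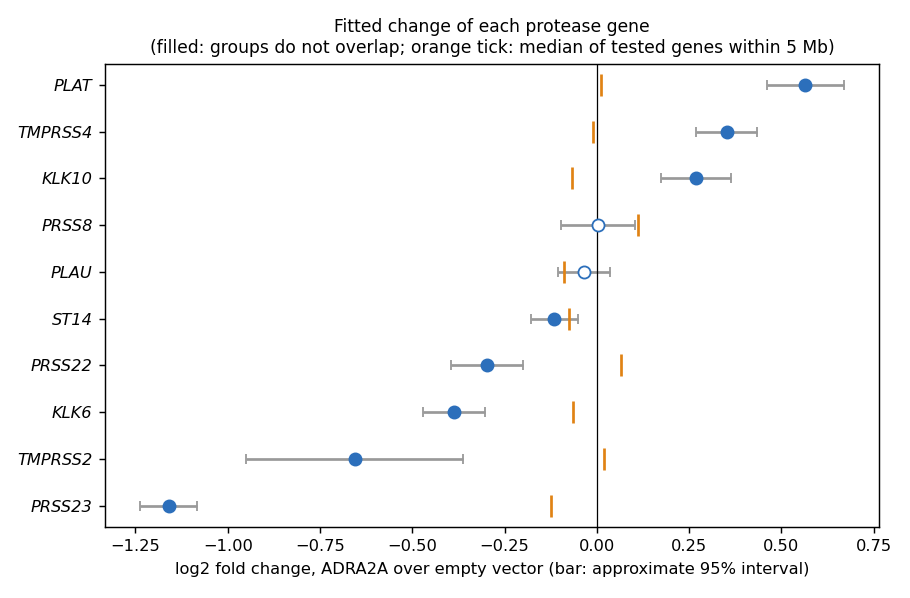
Fitted log2 fold change of each protease gene (horizontal axis, ADRA2A over empty vector), with an approximate 95% interval as the bar. Filled points are genes whose groups do not overlap, and the orange tick is the median of the tested genes within 5 Mb. The genes run from PLAT at 0.56 to PRSS23 at -1.16, while the ticks stay between -0.12 and 0.11.

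The kallikreins are secreted proteases encoded side by side on chromosome 19. KLK6 (ENSG00000167755.15; 50958631 to 50969673, minus strand) had 138, 146, 140.5 and 131 CPM in the empty-vector libraries and 103, 102, 108 and 112 in the ADRA2A libraries. It fell by 0.39 on the log2 scale (SE 0.04; edgeR adjusted p = 5.09e-07). KLK10 (ENSG00000129451.12; 51012739 to 51020175, minus strand) had 105, 103, 93.7 and 94.5 CPM against 111, 119, 121 and 125. It rose by 0.27 on the log2 scale (SE 0.05; edgeR adjusted p = 0.000132). In both genes the groups were apart, in opposite directions, with 43065 bases between them. Within each library the log2 CPM of KLK10 minus that of KLK6 was -0.49 ± 0.08 without the transgene and 0.17 ± 0.04 with it (SD, n = 4 each). This difference was computed after both values were seen and is a description. It takes no account of length: per kilobase of the MANE Select transcript KLK6 was above KLK10 in the ADRA2A cells too, at 74.4 against 39.9 CPM.

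Of the other 13 kallikrein genes 5 were tested and 1 rose, KLK11, with none lower. The 8 that did not pass the filter had at most 4 counts in a library. KLK11, which lies next to KLK10, had 16.9 to 19.1 CPM in the empty-vector libraries and 36.9 to 41.2 in the ADRA2A libraries (log2 change 1.12 ± 0.07, SE; edgeR adjusted p = 4.35e-11). KLK8, between KLK6 and KLK10, had a fitted log2 change of 0.25, standard error 0.14 (adjusted p = 0.158 by edgeR) with overlapping groups, and 0.14 without ADRA2A replicate 3 (adjusted p = 0.482). KLK7 and KLK1 reached no more than 24 and 16 counts in a library and were not called, and no difference was detectable for them at this depth. The median of the 5 was 0.25. Over all genes tested 21.6% were called higher and 21.1% lower, and nothing is read from the comparison.

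**Figure D3:**
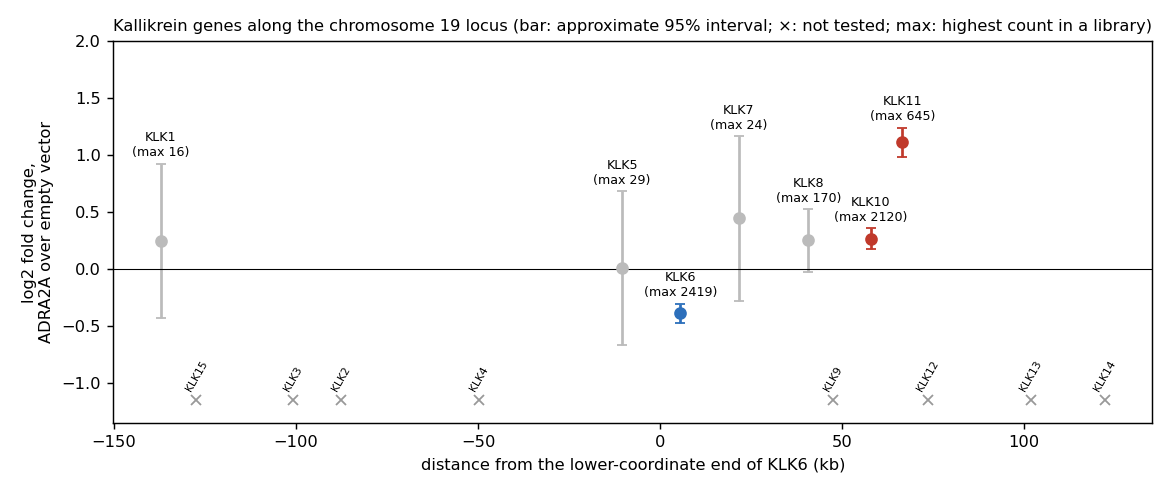
Log2 fold change (vertical axis, with an approximate 95% interval) of the kallikrein genes against distance in kilobases from the lower-coordinate end of KLK6. Red is higher, blue lower and grey not called, crosses are genes that were not tested, and the number under a name is its highest count in a library. KLK6 lies below 0 while KLK10 and KLK11 lie above it.

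PLAU and PLAT encode urokinase and tissue plasminogen activator, the proteases that convert plasminogen to plasmin. PLAU (ENSG00000122861.16; chromosome 10, 73909177 to 73917496, plus strand) was the most counted of the 10, with 1153, 1247, 1189 and 1151 CPM in the empty-vector libraries. In the ADRA2A libraries it had 1166, 1184, 1203 and 1076 CPM, and the groups overlapped. On the log2 scale the fitted change came to -0.03, standard error 0.04 (adjusted p = 0.471 by edgeR), with an approximate 95% interval of -0.10 to 0.04.

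PLAT (ENSG00000104368.17; chromosome 8, 42174718 to 42207709, minus strand) had 262, 292, 229 and 244 CPM in the empty-vector libraries and 382, 362, 384 and 388 in the ADRA2A libraries. Every ADRA2A library was higher, and the spread was wider without the transgene, with a coefficient of variation of 10.5% against 3.04%. On the log2 scale the fitted change came to 0.56, standard error 0.05 (adjusted p = 4.52e-08 by edgeR). Of the 9 tested proteases 7 had groups that did not overlap. Among all genes tested the share was 39.2%, and nothing is read from the comparison.

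The tested genes near each protease gene on its chromosome were compared with it. The median log2 fold change of the tested genes within 5 Mb lay between -0.12 for PRSS23 (21 genes) and 0.11 for PRSS8 (121 genes). The neighbours of PRSS23 were mostly on its side, 15 of 21 with a negative value, at a size well under its own -1.16. For ST14, whose own value was -0.11, the neighbours' median was -0.08, with 24 of 34 negative. For PLAU, whose own value was -0.03, it was -0.09, with 49 of 77 negative. The median over all genes tested was 0.00. For KLK6 and KLK10, which lie close together, the neighbours' medians were -0.06 and -0.07 within 5 Mb and 0.04 and 0.02 within 1 Mb. For PLAT, TMPRSS4, TMPRSS2 and PRSS22 the medians were 0.01, -0.01, 0.02 and 0.06, and within 1 Mb that of PLAT was -0.02.

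Levels can be compared between genes only per length of transcript, here as CPM per kilobase of the MANE Select transcript. In the empty-vector cells PLAU led with 506 ± 19, followed by PRSS23 with 107 ± 3.82, KLK6 with 97.3 ± 4.37, PLAT with 83.7 ± 8.83 and ST14 with 83.2 ± 0.672 (SD, n = 4 each). PRSS8, PRSS22, KLK10 and TMPRSS4 lay between 38.9 and 30.4, and TMPRSS2 stood at 1.61 ± 0.150. Neighbours in this order whose libraries overlapped were KLK6 and PLAT, PLAT and ST14, PRSS22 and KLK10, and KLK10 and TMPRSS4.

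In the ADRA2A cells PLAU again led, with 494 ± 24.1 CPM per kilobase, and PLAT came next with 124 ± 3.77. ST14 (76.9 ± 1.23) and KLK6 (74.4 ± 3.15) overlapped, and PRSS23 followed at 47.9 ± 2.28 (SD, n = 4 each). KLK10, PRSS8 and TMPRSS4 stood between 39.9 and 38.8, with each overlapping the next, then PRSS22 at 27.7 and TMPRSS2 at 1.02. The order depended on the length used. With all exons joined, or with the median coding transcript, only PLAU at the top and TMPRSS2 at the bottom kept their place in both groups under both. PRSS23 dropped in rank between the groups with each length, from 2 to 5, from 4 to 9 and from 2 to 4.

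Whether a protease transcript moved relative to its inhibitor or receptor was asked for 6 pairs, 4 of which are reported, as the difference in log2 CPM within each library. Matriptase and prostasin are held in check by the Kunitz inhibitors SPINT1 and SPINT2, and urokinase binds the receptor PLAUR. SPINT1 had 209 ± 11.3 CPM without the transgene and 218 ± 2.64 with it, SPINT2 530 ± 22.8 and 510 ± 20.5, and PLAUR 36.2 ± 1.96 and 35.5 ± 1.36 (SD, n = 4 each). None of the 3 was called (edgeR adjusted p = 0.223, 0.242 and 0.73). Without empty-vector replicate 2, which had the highest SPINT1 value, SPINT1 was called higher, its log2 fold change going from 0.06 to 0.10 (edgeR adjusted p = 0.0319).

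ST14 minus SPINT1 was 0.42, 0.27, 0.44 and 0.47 in the empty-vector libraries and 0.23, 0.21, 0.25 and 0.20 in the ADRA2A libraries, with no overlap. The difference of means was -0.18, with a two-sided exact permutation p of 0.0286, the smallest that 4 against 4 allows, and 0.171 adjusted over the 6 pairs. PRSS8 moved by -0.06 against SPINT1 and 0.06 against SPINT2, and PLAU by -0.01 against PLAUR, with overlapping groups in each pair (exact permutation p, adjusted over 6 pairs, 0.257, 0.377 and 0.83).

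**Figure D4:**
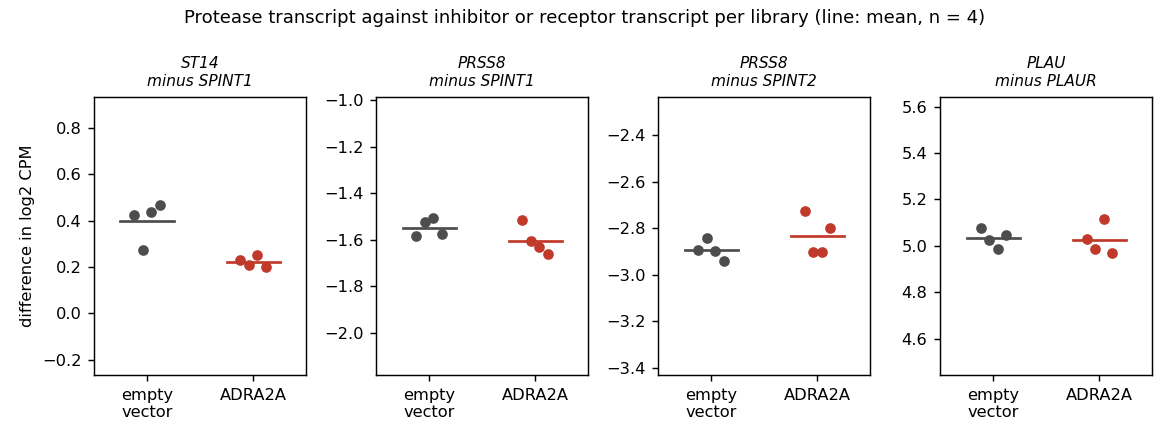
Difference in log2 CPM between a protease transcript and its inhibitor or receptor transcript in each library (points), with the group mean as a line (n = 4). Each panel has its own vertical scale. ST14 minus SPINT1 separates the groups, while they overlap in the other 3 panels.

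The other membrane-anchored serine proteases were mostly silent, with 6 of 20 genes tested, 2 higher and 2 lower. Their median log2 fold change was 0.30, beside 0.00 for all genes. Beside these counts, 21.6% of all genes tested were called higher and 21.1% lower, and nothing is read from them. TMPRSS11E, a transmembrane protease of squamous epithelia, fell from 14.5 ± 0.676 to 3.49 ± 0.520 CPM (SD, n = 4 each; log2 fold change -2.05 ± 0.12, SE; edgeR adjusted p = 3.1e-11), a change larger than that of any of the 10 listed genes. PRSS21, which encodes the GPI-anchored testisin, rose from 17.6 ± 0.755 to 29.4 ± 0.932 CPM (SD, n = 4 each; edgeR adjusted p = 1.9e-08). HPN (hepsin) was called higher at 2 to 12 counts against 11 to 31, with overlapping groups (edgeR adjusted p = 0.00933), but not without ADRA2A replicate 1 (adjusted p = 0.0583). TMPRSS13 was called lower with overlapping groups (log2 fold change -0.28; edgeR adjusted p = 0.0373). That call was lost with DESeq2 (adjusted p = 0.0511) and in the fits without empty-vector replicate 1, 2 or 4 or ADRA2A replicate 2 or 4, and the adjusted p over all alternatives ran from 0.0102 to 0.126.

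Of 36 other secreted trypsin-fold proteases 13 were tested, 7 rose and 1 fell, with a median log2 fold change of 0.32. As shares of all genes tested, 21.6% were called higher and 21.1% lower, and nothing is read from this list's counts. CFB, complement factor B, averaged 76.2 ± 17.3 CPM in the empty-vector libraries and rose to 342 ± 39.5 (SD, n = 4 each; log2 fold change 2.17 ± 0.11, SE; edgeR adjusted p = 4.76e-12). HABP2, which encodes a plasma protease that binds hyaluronan, rose by 1.81 on the log2 scale (SE 0.08; edgeR adjusted p = 1.04e-12). CFI, complement factor I, rose by 1.15 (SE 0.05; edgeR adjusted p = 2.7e-13). PRSS2, anionic trypsinogen, was called lower at 19 to 48 counts against 0 to 4 (edgeR adjusted p = 1.17e-06). It had at least 1.29 CPM in the empty-vector libraries and at most 0.253 in the ADRA2A libraries. It therefore passed the filter through the empty-vector group alone. A call of higher was not open to it, and this call is given as a description. PRSS1 and PRSS3 are similar in sequence, and reads could be shared with them, which was not tested, so the PRSS2 value is uncertain. PRSS1 had at most 2 counts, and PRSS3 was not called (log2 fold change -0.19; edgeR adjusted p = 0.318). The acinar protease genes PRSS1, CTRB1, CTRC and CELA3A did not pass the filter, with at most 4 counts in a library.

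**Figure D5:**
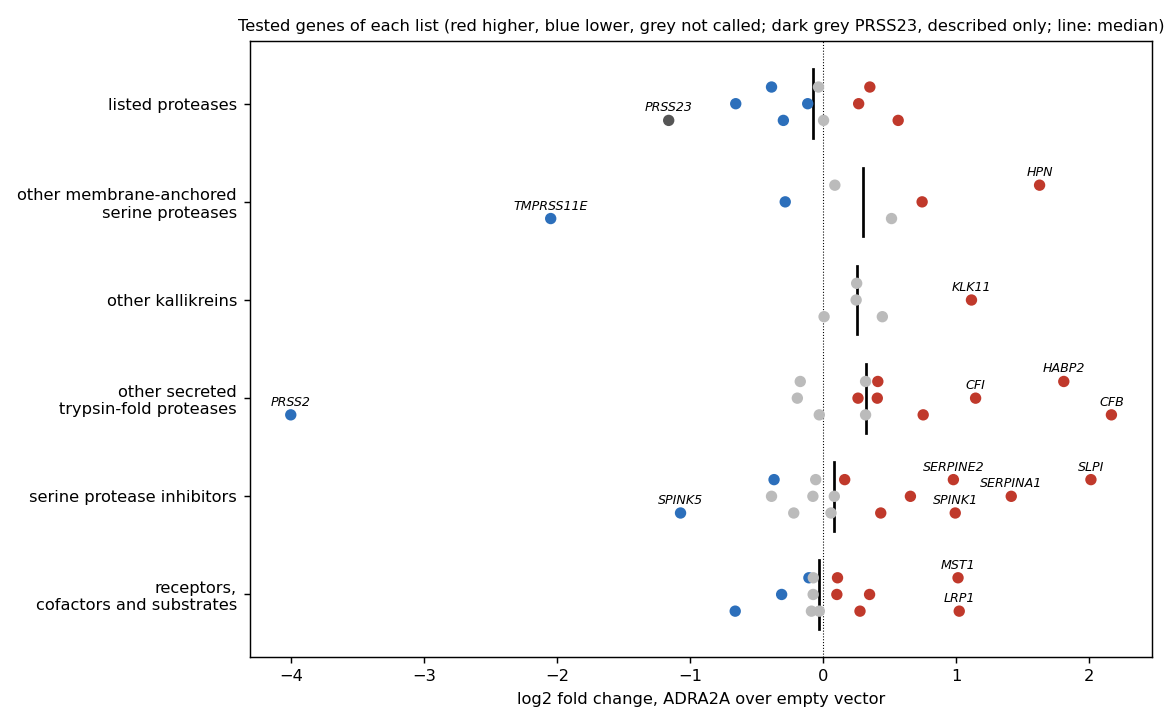
Log2 fold change (horizontal axis, ADRA2A over empty vector) of every tested gene in each list, 1 point per gene, with the list's median as a black line. Red is higher, blue lower and light grey not called, and PRSS23 is dark grey because it was not tested. Names are printed for genes past 0.9 in either direction, and the value of PRSS2 rests on few counts.

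The serine protease inhibitors had 15 of 24 genes tested, of which 7 rose and 2 fell, with a median of 0.08. Among all genes tested 21.6% were called higher and 21.1% lower, and nothing is read from this list's counts. SLPI, an inhibitor of neutrophil elastase, rose from 30.9 ± 2.10 to 125 ± 7.63 CPM (SD, n = 4 each; log2 fold change 2.01 ± 0.06, SE; edgeR adjusted p = 1.31e-15). SERPINA1, alpha-1-antitrypsin, rose from 346 ± 21.1 to 922 ± 42.4 CPM (SD, n = 4 each; edgeR adjusted p = 3.2e-15). SERPINE2, an inhibitor of thrombin, urokinase and tissue plasminogen activator, rose from 62.7 ± 2.48 to 124 ± 7.04 CPM (SD, n = 4 each; edgeR adjusted p = 2.84e-12). TFPI2, a Kunitz inhibitor of plasmin, rose by 0.43 on the log2 scale (SE 0.04; edgeR adjusted p = 5.33e-09). The 2 that fell were SPINK5 (-1.07) and SERPINB5 (-0.37).

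Of 18 receptors, cofactors and substrates 13 were tested, 6 rose and 3 fell, with a median of -0.03. Here too nothing is read from the counts, with 21.6% of all genes tested called higher and 21.1% lower. LRP1, an endocytic receptor that clears protease-inhibitor complexes, rose from 17.9 ± 2.44 to 36.4 ± 5.25 CPM (SD, n = 4 each; edgeR adjusted p = 8.47e-08). The protease-activated receptors went both ways. F2R, the thrombin receptor PAR1, rose from 274 ± 10.9 to 333 ± 9.91 CPM (SD, n = 4 each; edgeR adjusted p = 3.52e-06). F2RL1, the receptor PAR2 that trypsin-like proteases activate, fell from 246 ± 11 to 198 ± 4.84 CPM (SD, n = 4 each; edgeR adjusted p = 1.56e-06). PLGRKT, a plasminogen receptor, fell by 0.66 on the log2 scale (SE 0.09; edgeR adjusted p = 1.1e-05). Of the epithelial sodium channel subunits, SCNN1A (alpha) rose by 0.35 on the log2 scale (SE 0.05; edgeR adjusted p = 1.31e-05). SCNN1B (beta) had at most 2 counts in a library and SCNN1G (gamma), the subunit that prostasin is known to cleave, had 0 in all 8, and neither passed the filter.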

How the data were processed

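The authors deposited a table of estimated counts per gene, with 58870 genes and 8 libraries. cutadapt, STAR, RSEM, DESeq2 and hg38 are named, without versions or roles, per the submitters' processing notes. The annotation release and the use of strand are not given in the sources used here. RSEM divides reads shared between genes, so between 4.61% and 4.90% of entries had decimals. Counts were rounded. filterByExpr left 14785 genes, holding 99.9% of each library's counts, and TMM scaling and the quasi-likelihood test of edgeR 4.0.16 (R 4.3.3) were applied with group as the single term. P-values were adjusted over all genes by the Benjamini-Hochberg method. The SE is the absolute log2 fold change divided by the square root of F. The fitting code was tested on simulated counts in which 200 genes were changed. At 1.5-fold 154 were recovered and 10 unchanged genes were called. At 2-fold 183 were recovered and 26 unchanged genes were called. Far fewer genes were changed there than the 6314 called in the data. The simulation therefore does not check the scaling or the error rate in that setting. Positions, transcripts and lengths are from GENCODE 44 on GRCh38, to which 99.4% of identifiers matched. Pairs used log2 CPM with a prior count of 0.5 and an exact test over all 70 divisions of the libraries into 4 and 4, adjusted over 6 pairs, and the results of 1 partner gene are not reported here.

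Named individually were the 10 proteases, ADRA2A, the partner genes, the 4 genes of smallest p in each of 5 lists and the 3 genes most like PRSS23. MX1, FZD4, THBS1, SPINK5, SERPINB5, the SCNN1 genes, PRSS3 and untested acinar genes were added after values were seen. The proteases and the lists were chosen with earlier results of these data known. Between replicates of a group, chi-square over degrees of freedom ran from 2.12 to 4.59, so no library repeated another. Alternatives were DESeq2 1.42.0, RLE or upper quartile factors, other filters, the replicate block, each library left out, other lengths, windows and prior counts.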

Additional observations from a re-analysis of the deposited data

Results flagged for a closer look

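Among 74 groups of 4 values examined (named genes and pairs in each group of libraries), a single library stood apart from the other 3 in 2. A gap of that size arises by chance in about 1 group in 20. TFPI2 in empty-vector replicate 2 had 356 CPM against 332 to 334. F2R in ADRA2A replicate 1 had 347 CPM against 326 to 330.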

How the results depend on the processing

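The counts of 3 listed proteases higher and 4 lower were the same under all 14 alternatives, among them the fit with the replicate number as a block (3 and 4). Same-numbered libraries shared no deviation (correlations -0.05 to 0.07), and the block moved the count of all genes called from 6314 to 6400. PRSS23 stayed between -1.19 and -1.13. PRSS8 turned to -0.014 with upper quartile factors and, leaving out empty-vector replicate 1 or 4 or ADRA2A replicate 1, to -0.017, -0.023 and -0.021; with each library left out it ran from -0.023 to 0.049. PLAU minus PLAUR ran from -0.038 to 0.010 with a library left out. With 1 library left out, the smallest possible p for a pair is 0.0286, and with the replicate block 0.125. Other membrane-anchored proteases called higher went from 2 to 1 at a mean of at least 50 counts, and called lower from 2 to 1 with DESeq2; both lay between 1 and 2 with a library left out. Other secreted proteases called lower numbered 2 with no filter and 0 at a mean of at least 50 counts, the PRSS2 call being lost there. With a library left out, 6 or 7 of that list were called higher. Inhibitors called higher numbered 6 at a mean of at least 50 counts. With a library left out they numbered 7 or 8, and those called lower 2 or 3. Receptors, cofactors and substrates called lower numbered 3 or 4. With all exons joined, 3 of the 10 genes kept their rank per length in the empty-vector libraries and 2 in the ADRA2A libraries, and with the median coding length 3 and 4. The neighbours' median became -0.035 for PRSS23 and -0.035 for ST14 within 10 Mb. Within 1 Mb it became 0.083 for PRSS8, 0.121 for TMPRSS2, 0.043 for KLK6, 0.023 for KLK10 and -0.017 for PLAT. The cause of these shifts was not tested.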
